A study of Mus musculus with 16 samples.

Results

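A group of 10 genes of renal amino acid transport was followed through whole kidneys of 16 mice: Slc3a1, Slc7a9, Slc7a13, Slc3a2, Slc7a7, Slc7a8, Slc6a19, Slc6a18, Slc1a1 and Slc7a12. They were picked by name for what they do, and all 10 of them were found among the 30277 genes of the deposited table. Their values were also known from earlier work on the same data, in which Slc7a12 had passed in the comparison of KlKl with control males. Values of the members in that comparison, and in the difference between the sexes that contains it, are therefore given as a description, without a p-value, and so are those of Slc7a12 between the sexes, which share male libraries with it. All 10 passed the filter on low values (4 or more libraries with a TPM of at least 1), Slc7a13 through its 8 male libraries and Slc7a12 through 10 libraries, none of them a male control.

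The proximal tubule takes back nearly all amino acids from the filtered fluid. Carriers in the apical brush border bring them into the cell, and exchangers in the basolateral membrane pass them to the blood. Several of these exchangers are light chains (Slc7 family) that reach the membrane only when bound to a heavy chain, Slc3a1 (rBAT) on the apical side or Slc3a2 (4F2hc, CD98) on the basolateral side. Loss of SLC3A1 or SLC7A9 causes cystinuria, loss of SLC7A7 causes lysinuric protein intolerance, and loss of SLC6A19 causes Hartnup disorder.

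The mice were C57BL/6J and carried, or lacked, a recessive mutation of Klotho (Kl), whose product is a co-receptor for the hormone FGF23. There were 4 animals in each group. Male controls 1 and 2 were heterozygous (+/Kl), male controls 3 and 4 were wild type (+/+), and all 4 female controls were heterozygous, aged 46 to 48 days in males and 47, 47, 57 and 48 days in females. The KlKl mice were homozygous and had renal failure per the labels, at 47, 49, 46 and 59 days in males and 47, 47, 48 and 52 days in females. The mutation is carried in every cell, so kidney and body are affected together. Library names begin with CFK for replicates 1 and 2 and with CFdk for replicates 3 and 4 in every group, so that in male controls the name series and the genotype cannot be told apart. The same library numbers recur in both sexes, and sex and a set of libraries cannot be told apart from the labels.

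Kl itself, the check of the labels, was at 7.82 to 11.7 TPM in male controls and 2.04 to 5.73 TPM in female controls. In KlKl it was at 0.258 to 1.49 TPM in males and 0.0728 to 0.222 TPM in females, below the controls of the same sex in every library. Depth, inferred by recovering reads from the TPM, was 13034332 to 20115377 reads in males and 8213084 to 14511294 in females. Female control 3 stood apart by its low depth and by a ribosomal RNA share of 15.2% of TPM, next to 3.32% to 6.18% in the other libraries. Male KlKl 3 stood apart by low levels of some male-biased kidney genes. Kap, an androgen-regulated kidney transcript, was at 761 TPM there and at 4038 to 7074 TPM in the other KlKl males. Counts of members passing are given with and without these 2 libraries. Male KlKl 3 was singled out by genes that differ by sex, so leaving it out is not independent of the sex comparison. Proximal tubule markers were present throughout: 10 listed genes of the S1 and S2 segments summed to 311.8 to 448.2 TPM in male controls, 355.8 to 443.8 TPM in KlKl males, 136.3 to 271.3 TPM in female controls and 257.4 to 287.5 TPM in KlKl females. In whole tissue, fewer cells of a type and less RNA per cell cannot be told apart.

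Slc7a12, the member that the earlier result had named, has a close relative in the table, the unprocessed pseudogene Gm6300, which lies 103.109 kb away on chromosome 3. The GENCODE M21 transcripts of the pair were 75.7% identical over 1396 aligned bases, with a longest identical run of 47 bases. Slc7a12 and Slc7a13, its nearest relative among the members, shared 64.5% over 780 bases, with a longest identical run of 11. The stretches below, bases 779 to 898 of the Slc7a12 transcript (coding sequence) and 777 to 896 of the Gm6300 transcript, show how reads from the pair can be told apart. Capitals mark the 35 of 120 bases that differ.
Slc7a12: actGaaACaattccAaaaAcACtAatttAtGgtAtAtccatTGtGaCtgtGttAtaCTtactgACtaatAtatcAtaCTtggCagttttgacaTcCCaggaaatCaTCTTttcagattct
Gm6300: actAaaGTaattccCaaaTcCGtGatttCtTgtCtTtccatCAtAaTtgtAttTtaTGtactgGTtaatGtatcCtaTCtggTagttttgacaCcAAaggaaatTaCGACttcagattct
How reads that match both were assigned is not given in the sources used here. On mm39, the build of the table, Slc7a12 (ENSMUSG00000039710) spans chr3:14545757-14570891 and Slc7a13 (ENSMUSG00000041052) spans chr4:19818725-19842219, while Slc3a1 (ENSMUSG00000024131) spans chr17:85335804-85371665 and Slc1a1 (ENSMUSG00000024935) spans chr19:28812449-28891361, all protein-coding and on the plus strand. Gm6300 (ENSMUSG00000104375) spans chr3:14428177-14442648.

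TPM in the deposited table divides reads by the whole span of a gene, introns included, so levels are compared between genes only per exon length below. On that scale (RPKM computed from recovered reads, with exon lengths from GENCODE M21), the order of the members differed between the sexes. In male controls Slc7a13 was highest at 379 ± 55.7 (SD, n = 4), followed by Slc3a1 at 222 ± 16 and Slc6a18 at 126 ± 5.76, and the ranges of these neighbours in the order did not come within 1 SD of each other. Slc6a19 (61.4 ± 28.4), Slc7a7 (41.0 ± 4.92), Slc3a2 (38.9 ± 2.81) and Slc7a9 (37.5 ± 5.30) followed, and these 4 did not differ beyond their spread. Slc1a1 (27.3 ± 0.860) and Slc7a8 (22.9 ± 4.75) overlapped within 1 SD, and Slc7a12 was lowest at 4.04 ± 1.89. In female controls Slc3a1 (152 ± 21.9) and Slc6a18 (136 ± 23.5) led and overlapped within 1 SD. There Slc7a13 was lowest, at 4.70 ± 2.59, and Slc7a12 stood at 33.7 ± 18, a spread that overlapped those of Slc7a7 (44.8 ± 4.78), Slc7a9 (42.6 ± 2.95) and Slc7a8 (29.7 ± 10.7). The bottom of the order was thus held by Slc7a12 in male controls and by Slc7a13 in female controls. In KlKl males Slc7a13 (293 ± 190), Slc3a1 (225 ± 3.62) and Slc6a18 (145 ± 11.6) led, and Slc7a13 overlapped each of the others within 1 SD. There Slc7a12, at 26.7 ± 9.43, had come level with Slc1a1 (25.4 ± 3.80) and Slc7a8 (24 ± 4.76). In KlKl females Slc3a1 (163 ± 12.2) and Slc6a18 (118 ± 13.9) led, and Slc7a13 was again lowest, at 4.37 ± 2.87.

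**Figure D1:**
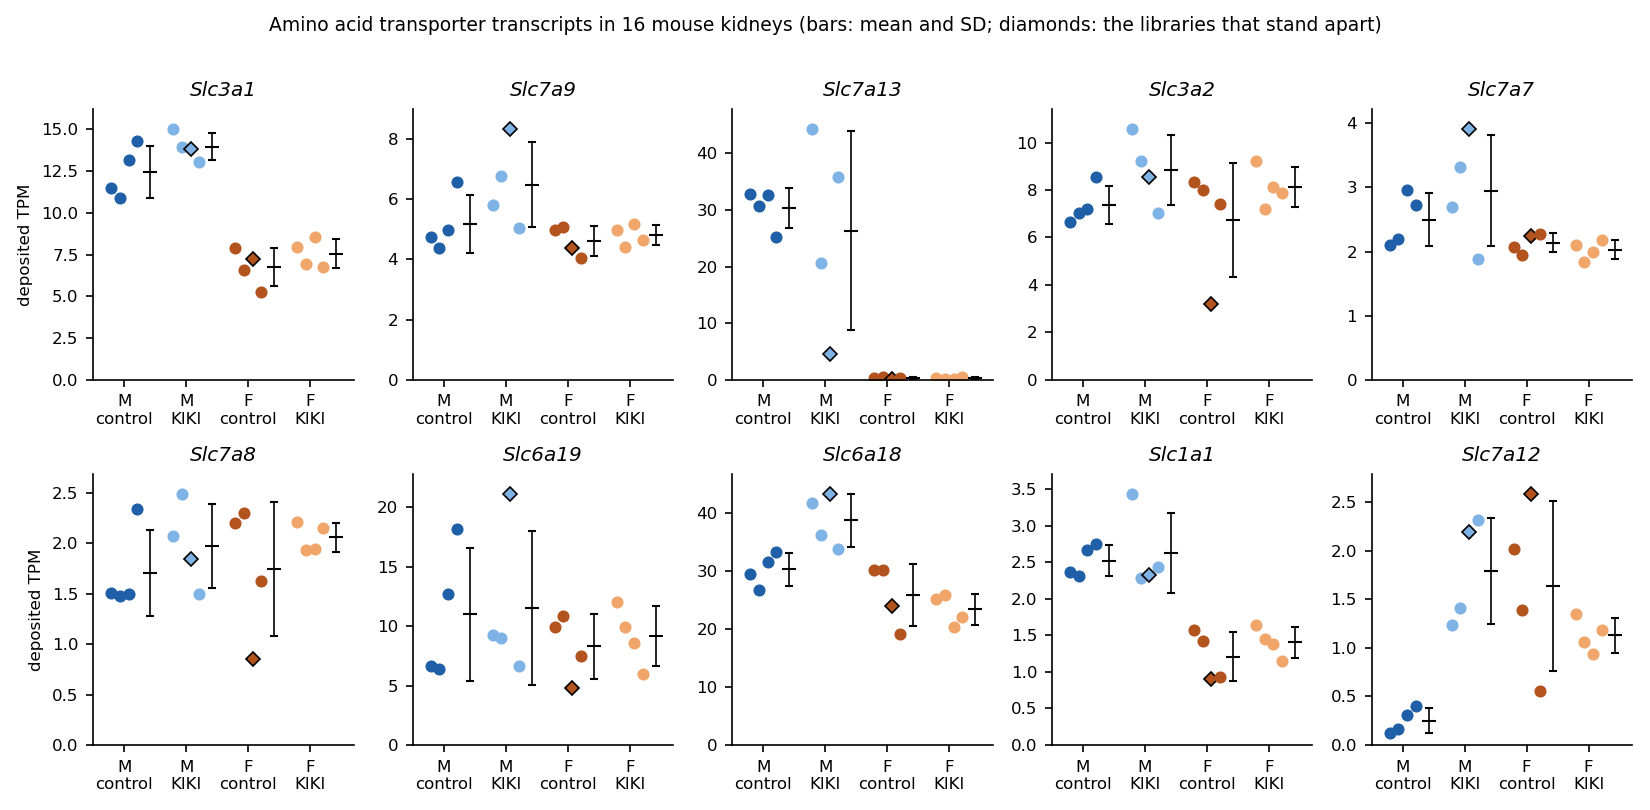
Deposited TPM of the 10 transporter genes in each of the 16 kidneys, with each vertical axis starting at 0 and the mean and SD of each group beside its 4 points. Slc7a13 is at 4.53 to 44.3 TPM in males and at most 0.524 TPM in females, Slc7a12 is lowest in male controls, and diamonds mark female control 3 and male KlKl 3.

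Slc7a13 (AGT1) is a light chain that carries aspartate, glutamate and cystine on the apical side of the late proximal tubule, with Slc3a1 as its heavy chain. In male controls it was at 32.8, 30.6, 32.6 and 25.3 TPM, and in female controls at 0.358, 0.493, 0.0817 and 0.274 TPM. Every male control exceeded every female control by a wide margin, with 12083 to 16865 reads in males and 23 to 191 in females. On the log2(TPM + 1) scale, which understates differences of low genes, males were higher by 4.59 (SE 0.44, limma adjusted p = 2.7e-06). In KlKl mice the values were 44.3, 20.6, 4.53 and 35.9 TPM in males and 0.297, 0.106, 0.22 and 0.524 TPM in females. The sex difference there was 4.05 (SE 0.44, limma adjusted p = 8.6e-06), and the groups did not overlap although male KlKl 3 lay far below the other KlKl males. The TPM filter had admitted Slc7a13 through its 8 male libraries alone, the sex in which it is high. Over the alternative fits, limma's adjusted p was at most 0.000202 in controls and 0.000279 in KlKl. These included a fit of 28483 genes without the TPM filter.

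Slc3a1, the heavy chain of Slc7a13 and Slc7a9, was also higher in males. Its TPM was 11.5, 10.9, 13.1 and 14.3 in male controls and 7.88, 6.59, 7.26 and 5.24 in female controls. No female value reached the lowest male value, and the log2 difference was 0.80 (SE 0.13, limma adjusted p = 0.00013). In KlKl mice it was at 15.0, 14.0, 13.8 and 13.1 TPM in males and 7.96, 6.96, 8.58 and 6.75 TPM in females, again without overlap. The difference was 0.81 (SE 0.13, limma adjusted p = 0.00013). Scaling the libraries by the median ratio of their genes, in place of the fixed total, gave 0.52 in controls and 0.40 in KlKl, and both passed (adjusted p = 0.001 and 0.0085).

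Slc7a9 (b0,+AT), the light chain that exchanges cystine and basic amino acids with Slc3a1, did not pass between the sexes in controls, where its heavy chain did. Over the 16 libraries the pair still had a Pearson r of 0.69. Slc7a9 was at 4.75, 4.37, 4.97 and 6.58 TPM in male controls and 4.98, 5.08, 4.37 and 4.04 TPM in female controls, and the groups overlapped. The log2 difference of 0.13 (SE 0.14) did not pass (limma adjusted p = 0.44). In KlKl mice males were at 5.80, 6.75, 8.32 and 5.04 TPM and females at 4.98, 4.4, 5.16 and 4.65 TPM, which overlapped through 1 library on each side. The difference of 0.35 (SE 0.14) passed by limma (adjusted p = 0.039), but it was -0.03 under median-ratio scaling (adjusted p = 0.81) and 0.24 without male KlKl 3 (adjusted p = 0.13). The call also ended without male KlKl 2 (adjusted p = 0.083) and without female KlKl 1, 2 or 4 (adjusted p = 0.055, 0.097 and 0.078).

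Ratios of recovered reads within a library do not depend on its scaling. For every 100 Slc3a1 reads there were 18.2 to 22.1 Slc7a9 reads in male controls and 28.9 to 37.1 in female controls, without overlap. In KlKl the same ratio was 18.5 to 29.0 in males and 28.9 to 33.1 in females, where male KlKl 3 lay just above the lowest female and the ranges overlapped. Slc7a13 reads per 100 Slc3a1 reads were 116 to 187 in male controls and 0.737 to 4.90 in female controls. The share of the 2 light chains beside their common heavy chain thus differed between male and female controls for Slc7a9 and for Slc7a13 in opposite directions, as read ratios and not as protein. These ratios were not tested.

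Slc1a1 (EAAC1, EAAT3), the apical sodium-coupled carrier of aspartate and glutamate, was at 2.36, 2.31, 2.67 and 2.75 TPM in male controls. In female controls it was at 1.58, 1.42, 0.906 and 0.937 TPM, below every male. The log2 difference was 0.68 (SE 0.12, limma adjusted p = 0.00028). In KlKl mice it was at 3.43, 2.28, 2.33 and 2.44 TPM in males and 1.65, 1.45, 1.38 and 1.14 TPM in females, with a difference of 0.58 (SE 0.12, limma adjusted p = 0.0009). Under median-ratio scaling the differences were 0.50 and 0.29, and both passed (adjusted p = 0.00073 and 0.03), with overlapping groups in KlKl.

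Slc6a18 (B0AT3) and Slc6a19 (B0AT1), sodium-coupled apical carriers of neutral amino acids, are neighbours on chromosome 13 with 1.721 kb between them. Slc6a18 was at 29.6, 26.7, 31.6 and 33.3 TPM in male controls and 30.2, 30.2, 23.9 and 19.1 TPM in female controls, and the groups overlapped (log2 difference 0.24, SE 0.15, limma adjusted p = 0.2). In KlKl it was at 41.7, 36.2, 43.3 and 33.7 TPM in males and 25.3, 25.8, 20.4 and 22 TPM in females, without overlap, and the difference of 0.70 (SE 0.15) passed (limma adjusted p = 0.0014). Under median-ratio scaling the difference in KlKl was 0.27 (adjusted p = 0.073), and the call was lost although the groups still did not overlap.

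Slc6a19 varied widely within groups. It was at 6.62 and 6.40 TPM in male controls 1 and 2, which were heterozygous, and at 12.8 and 18.2 TPM in male controls 3 and 4, which were wild type. In the KlKl males it was at 9.30, 9.05, 21.1 and 6.64 TPM. The high values fell in male controls 3 and 4 and male KlKl 3, all with names in CFdk, but male KlKl 4, also CFdk, was low, and in female controls and KlKl the CFdk libraries (4.84 and 7.53, 8.61 and 6.02 TPM) were below the CFK ones (9.95 and 10.9, 12.1 and 9.91 TPM). Neither sex difference passed: 0.30 (SE 0.35, limma adjusted p = 0.49) in controls and 0.22 (SE 0.35, adjusted p = 0.63) in KlKl.

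None of the basolateral exchangers and their heavy chain passed between the sexes in controls. Slc3a2 (4F2hc) was at 6.67, 7.03, 7.22 and 8.53 TPM in male controls and 8.33, 7.98, 3.18 and 7.42 TPM in female controls, of which the low value was female control 3. Slc7a7 (y+LAT1), which releases basic amino acids to the blood, was at 2.10, 2.19, 2.95 and 2.73 TPM in male controls and 2.08, 1.95, 2.24 and 2.27 TPM in female controls. Slc7a8 (LAT2), which exchanges neutral amino acids, was at 1.51, 1.48, 1.49 and 2.34 TPM in male controls and 2.20, 2.30, 0.850 and 1.63 TPM in female controls. All 3 pairs of groups overlapped, with log2 differences of 0.18 (SE 0.21), 0.15 (SE 0.13) and 0.00 (SE 0.16) and limma adjusted p-values of 0.48, 0.36 and 0.99. Without female control 3 and male KlKl 3 the differences of Slc3a2 and Slc7a8 were -0.10 and -0.18, and neither passed. Median-ratio scaling without these libraries gave -0.35 for Slc3a2 (limma adjusted p = 0.0022) and -0.37 for Slc7a8 (limma adjusted p = 0.0081), both past the threshold.

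In KlKl, Slc7a7 was at 2.70, 3.31, 3.91 and 1.88 TPM in males and 2.10, 1.83, 1.99 and 2.17 TPM in females. The groups overlapped, since male KlKl 4 lay within the female range. Its difference of 0.36 (SE 0.13) passed by limma (adjusted p = 0.033), but fell to 0.04 under median-ratio scaling (adjusted p = 0.83) and to 0.24 without male KlKl 3 (adjusted p = 0.11). The call ended too without male KlKl 2 (adjusted p = 0.089) and without female KlKl 2 or 3 (adjusted p = 0.082 and 0.06). Slc3a2 was at 10.6, 9.24, 8.55 and 7.05 TPM in KlKl males and 9.22, 7.20, 8.14 and 7.87 TPM in KlKl females, with a difference of 0.11 (SE 0.21, limma adjusted p = 0.68). Slc7a8 was at 2.07, 2.49, 1.85 and 1.5 TPM in males and 2.21, 1.93, 1.94 and 2.15 TPM in females, with a difference of -0.05 (SE 0.16, limma adjusted p = 0.81). Median-ratio scaling without female control 3 and male KlKl 3 gave -0.23 for Slc3a2 (limma adjusted p = 0.027) and -0.28 for Slc7a8 (limma adjusted p = 0.032), so that both passed as lower in KlKl males in that setting.

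Slc7a12 (Asc-2), a light chain for small neutral amino acids whose heavy chain is not known, went the other way. It was at 0.125, 0.167, 0.309 and 0.406 TPM in male controls, from 67 to 207 reads, and at 2.02, 1.39, 2.59 and 0.557 TPM in female controls, from 235 to 1020 reads. All 4 female controls exceeded all 4 male controls, and the log2 difference, males minus females, was -1.01 (SE 0.20). It is given without a test, since these male controls are those of the comparison in which Slc7a12 had been noticed. With a pseudocount of 0.1 in place of 1, which shrinks low genes less, the difference was -2.20 (SE 0.37). In KlKl mice the values were 1.23, 1.41, 2.19 and 2.32 TPM in males and 1.35, 1.06, 0.933 and 1.18 TPM in females, which overlapped. There the difference was 0.37 (SE 0.20), again without a test.

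Of the 9 members other than Slc7a12, 3 thus passed between the sexes in controls, Slc7a13, Slc3a1 and Slc1a1, all higher in males, against 52.6% of all 8059 genes tested (44.3% higher and 8.3% lower). In KlKl 6 of the 9 passed, all higher in males, against 54.7% of all genes (50.9% higher and 3.72% lower). In controls the members' share was below that of all genes, and in KlKl it was not far from it. The 4 members, Slc7a12 included, whose deposited values did not overlap in controls compare with 48.6% of all genes, and the 4 in KlKl with 49.7%. The median log2 difference was 0.21 over the members and 0.257 over all genes in controls, and 0.36 and 0.332 in KlKl. Scaling on the summed TPM of the tested nuclear genes gave 0.317 and 0.303 as the median over all genes. Median-ratio scaling brought that median to 0.05 and 0.02, which follows from the method, since it centres each library on its median gene. It left 48.7% of genes called in controls (28.8% higher, 19.9% lower) and 35.9% in KlKl (20.3% higher, 15.7% lower). Under it Slc7a13, Slc3a1 and Slc1a1 passed in controls and in KlKl, and none of the other 6. Without female control 3 and male KlKl 3, the same 3 passed in controls and 4 in KlKl (with Slc6a18), the latter against 58.4% of all genes. With both changes, 3 were higher and 2 lower in males (Slc3a2 and Slc7a8) in controls and in KlKl, against 55.5% and 51.8% of all genes called and 23.7% and 21.6% called lower. Slc6a18, Slc7a7 and Slc7a9 were called only in KlKl, relative to the fixed total and not under median-ratio scaling. Whether their sex difference changed with genotype was not tested. For Slc6a18 the KlKl effect in males minus that in females was 0.46 (SE 0.22), given as a description.

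**Figure D2:**
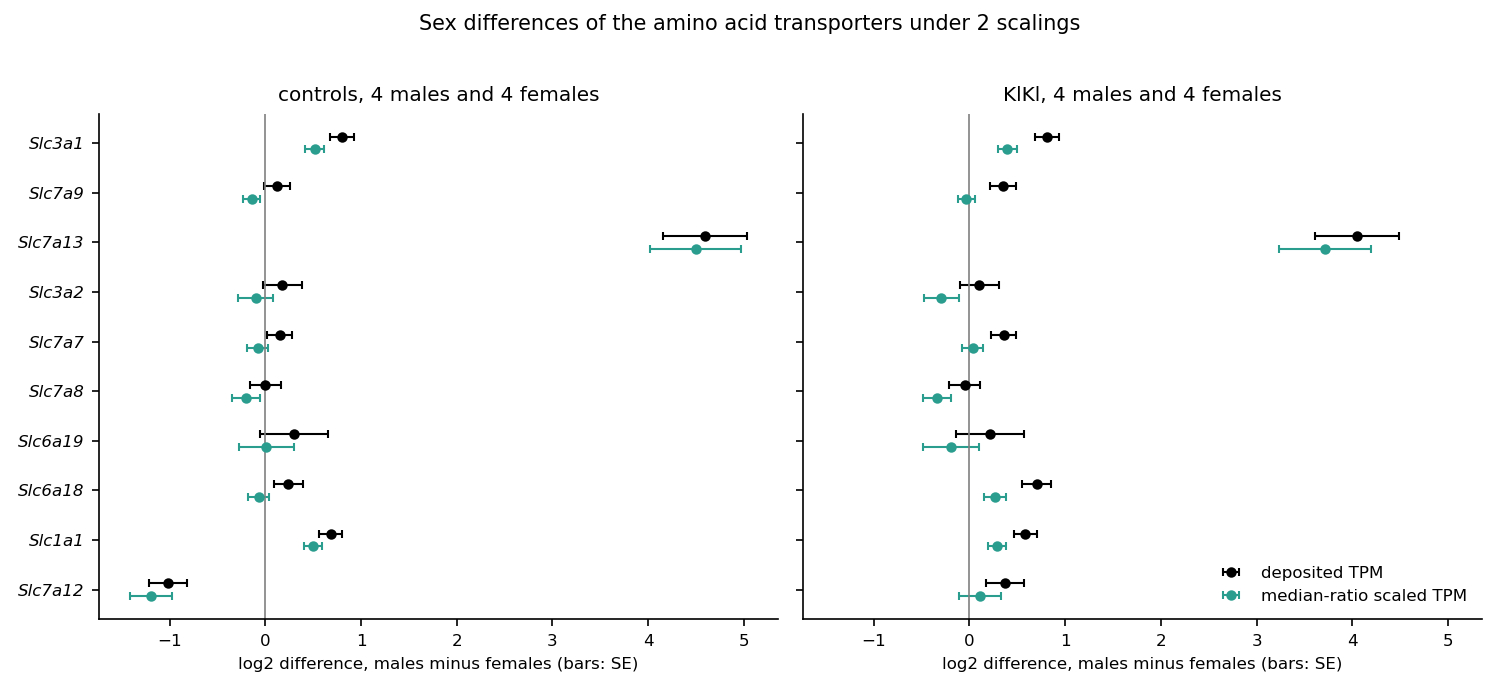
Log2 differences, males minus females, of the 10 transporter genes in controls and in KlKl, with SE, from deposited TPM and median-ratio scaled TPM. Slc7a13, Slc3a1 and Slc1a1 lie to the right of 0 in both panels under both scalings, Slc7a12 lies to the left of 0 in controls alone, and the others lie lower with median-ratio scaling than with deposited TPM, several of them across 0.

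Markers of the proximal tubule were mostly higher in males too. The marker calls here are from deposited TPM alone. Of the 10 S1 and S2 markers, 9 were higher in control males and 8 in KlKl males, with median log2 differences of 0.69 and 0.93, next to 44.3% and 50.9% of all genes called higher. Of 5 tested S3 markers, 4 were higher in control males and 4 in KlKl males (medians 0.53 and 0.63), and none of either list was lower. The summed S3 markers were at 37.1 to 52.2 TPM in male controls and 10.8 to 29.5 TPM in female controls. Male KlKl 3, where Slc7a13 was at 4.53 TPM, had an S3 sum of 11.9 TPM, next to 27.4 to 56.0 TPM in the other KlKl males, and an S1 and S2 sum of 443.8 TPM, the highest of that group. Red cell genes summed to 96.0 to 479.3 TPM in KlKl males and 16.5 to 58.1 TPM in KlKl females. Among later segments, 1 of 4 tested thick limb markers was higher and 1 lower in control males. None of 3 distal convoluted, 4 principal cell and 5 intercalated cell markers was higher there, and 1 principal cell marker was lower. In KlKl males 3 thick limb, 1 distal convoluted and 1 intercalated cell marker were higher, and none was lower. The part of these markers in the members' results was not tested.

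No member was called for KlKl against control in females. There 0 of 10 passed, against 0.0124% of all genes, which is Kl alone, and limma's adjusted p-values ran from 0.73 to 0.99. At an unadjusted p under 0.05, 376 of the 8059 genes passed. The largest differences were 0.30 (SE 0.21) for Slc3a2 and -0.25 (SE 0.20) for Slc7a12. Without female control 3 they were 0.03 and -0.08, and Slc7a12 was at -0.16 without female control 1 and -0.48 without female control 4. No member had groups that did not overlap, next to 2.94% of all genes. The member median of 0.09 was close to that of all genes, 0.105.

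In males, described without a test, Slc7a12 and Slc6a18 were the 2 members whose KlKl and control values did not overlap, next to 11.8% of all genes. Slc7a12 was at 0.252 ± 0.129 TPM in controls and at 1.79 ± 0.547 TPM in KlKl (SD, n = 4), a log2 difference of 1.14 (SE 0.20) on the log2(TPM + 1) scale, 0.95 (SE 0.22) under median-ratio scaling and 2.45 (SE 0.37) with a pseudocount of 0.1. Per exon length it went from 4.04 to 26.7, next to 33.7 in female controls and 22.4 in KlKl females. The lowest KlKl male was at 1.23 TPM and the highest male control at 0.406 TPM. With each library left out in turn, the difference ran from 1.05 to 1.24. These are the values through which Slc7a12 had been noticed, so they are no separate support. The KlKl effect in males minus that in females was 1.39 (SE 0.28).

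Slc6a18 was at 33.7 to 43.3 TPM in KlKl males and 26.7 to 33.3 TPM in control males, a log2 difference of 0.34 (SE 0.15) that shrank to 0.05 (SE 0.11) under median-ratio scaling, where the groups overlapped. Over all genes, the median difference was 0.18 in this comparison and -0.04 under median-ratio scaling, which centres each library on its median gene. Slc7a13 was lower in KlKl males by -0.56 (SE 0.44), and this rested on male KlKl 3: without it the difference was 0.08. The other 7 members lay between 0.03 (Slc1a1) and 0.27 (Slc7a9). In this comparison 0.0993% of all genes passed, 8 in number, and 909 passed with age as a covariate, 904 of them higher in KlKl, so the share of all genes called depended on that term.

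**Figure D3:**
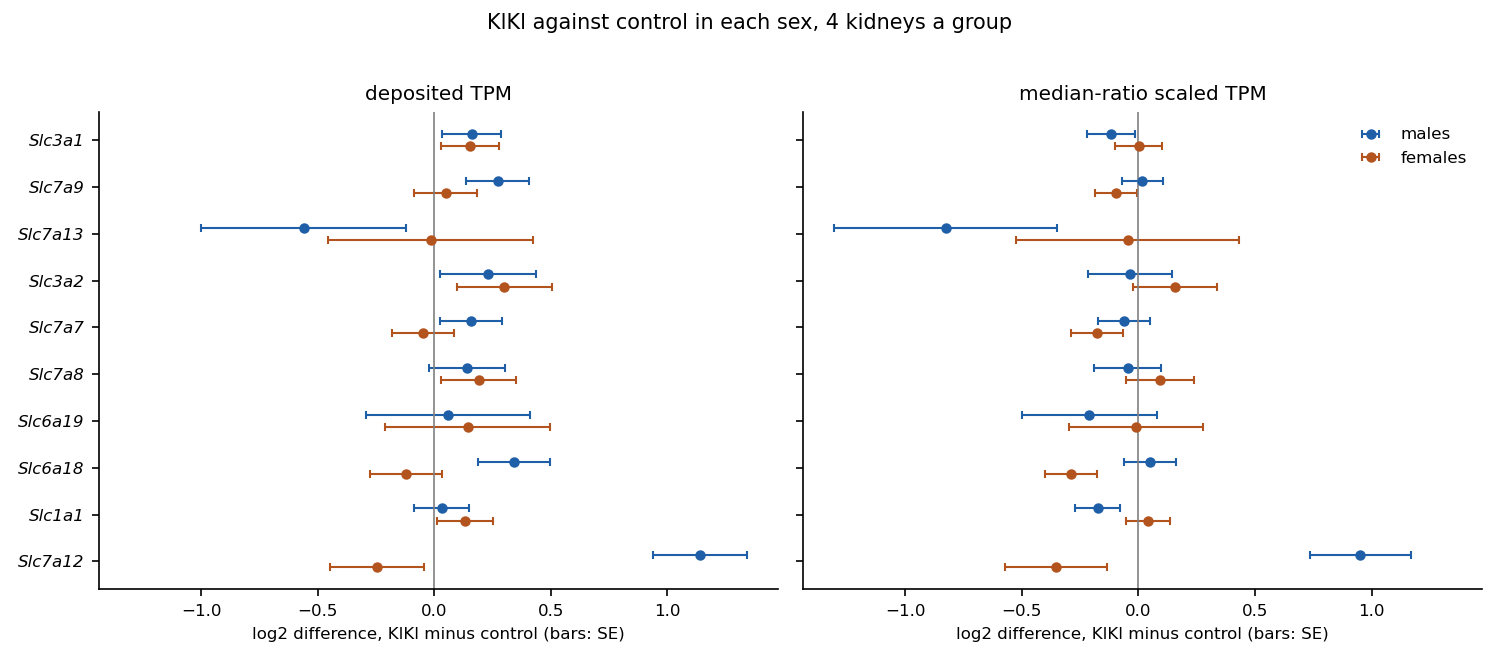
Log2 differences, KlKl minus control, of the 10 transporter genes in males and females, with SE, from deposited TPM (left) and median-ratio scaled TPM (right). Slc7a12 in males (1.14 and 0.95) stands to the right of the rest, Slc7a13 in males has a wide error that comes with male KlKl 3, and the other differences lie between -0.35 and 0.34.

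Gm6300 was highest in male controls, the group where Slc7a12 was lowest. It was at 3.44, 4.65, 4.91 and 1.77 TPM in male controls, from 520 to 1564 reads, and at 1.68, 0.692, 0.0417 and 0.0855 TPM in KlKl males, from 8 to 359 reads. In the 8 females it had at most 7 reads. Among all tested genes it had the most negative correlation with Slc7a12 over the 16 libraries (Pearson r = -0.76 of log2(TPM + 1)), a description over libraries that share group and scaling. KlKl males 3 and 4, highest of their group in Slc7a12 at 2.19 and 2.32 TPM, had the 2 lowest values of Gm6300 there. Male control 4 was the highest of its group in Slc7a12, at 0.406 TPM, and the lowest in Gm6300, at 1.77 TPM. Male control 1, in contrast, was below male controls 2 and 3 in both genes. The next gene on the other side, Rbis, 100.453 kb from Slc7a12, did not pass between control males and females (log2 difference -0.16, SE 0.11, limma adjusted p = 0.26).

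**Figure D4:**
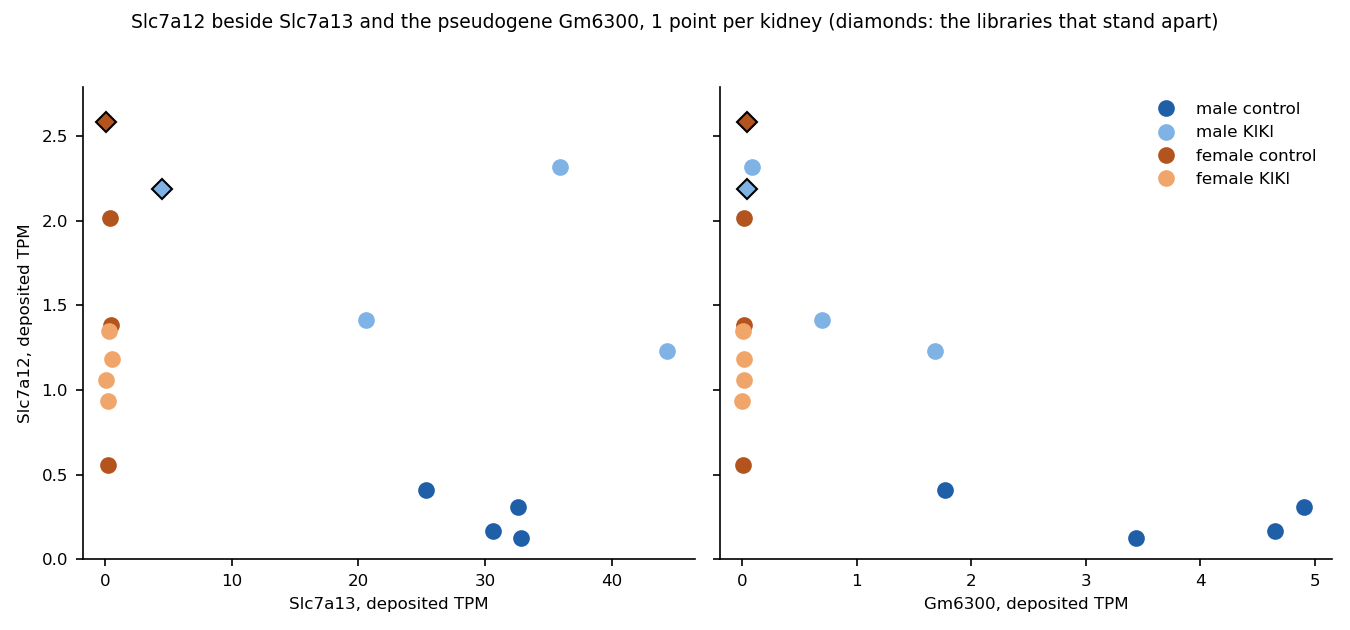
Slc7a12 TPM of each kidney (vertical) against Slc7a13 TPM (left) and Gm6300 TPM (right). Male controls lie at the bottom of both panels, with Slc7a12 at most 0.406 TPM, and females at the left edge. KlKl males 1 and 4 lie to the right of all male controls in Slc7a13, at 44.3 and 35.9 TPM, and all KlKl males lie to the left of them in Gm6300; all 4 have Slc7a12 of 1.23 TPM or more, 3 have Slc7a13 above 20 TPM and 2 have Gm6300 under 0.1 TPM.

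The genes with the highest correlation with Slc7a12 over the 16 libraries were Mgst1 (r = 0.90), a microsomal glutathione transferase, Rdh16f2 (r = 0.89), of the retinol dehydrogenase family, and Prlr (r = 0.85), the prolactin receptor. All 3 were lowest in male controls, Prlr at 0.246 TPM on average there and 1.03, 1.49 and 1.18 TPM in KlKl males, female controls and KlKl females. For Slc7a13 they were Cyp4b1 (r = 0.99), a cytochrome P450 known to rise with androgen in mouse kidney, Ugt8a (r = 0.99), which makes galactosylceramide, and Fmo5 (r = 0.99), a flavin monooxygenase. Cyp4b1 was at 11.2 TPM in male KlKl 3 and reached 141.6 TPM in another KlKl male. Gsta4, a glutathione transferase, had the most negative correlation with Slc7a13 (r = -0.97). These values describe 16 libraries that share sex, depth and scaling, and they carry no test. The genes were picked by these correlations, so a likeness of their levels to those of the member follows from the choice.

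Slc3a1 and Slc1a1 were the most correlated pair of members (r = 0.93 over the 16 libraries), followed by Slc1a1 with Slc7a13 (r = 0.90). The lowest values were those of Slc7a12 with Slc7a13 (r = -0.40) and with Slc1a1 (r = -0.27). All are on log2(TPM + 1) and carry the scaling that the genes of a library share. Because Slc3a1 and Slc1a1 moved together between the sexes, the 250 bases before their starts are shown, from RefSeq (GRCm38.p6), which had an entry for 7 of the 10 members and none for Slc7a12, Slc7a13 and Slc6a18. Slc3a1 is at chr17:85028097-85028346 and Slc1a1 at chr19:28834885-28835134, both on the plus strand, and capitals mark the matches of TATAAA on either strand.
Slc3a1: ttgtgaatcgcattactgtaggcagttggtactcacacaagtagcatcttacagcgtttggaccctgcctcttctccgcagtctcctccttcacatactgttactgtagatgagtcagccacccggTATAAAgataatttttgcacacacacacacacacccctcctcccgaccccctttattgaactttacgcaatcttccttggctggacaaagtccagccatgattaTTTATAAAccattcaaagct
Slc1a1: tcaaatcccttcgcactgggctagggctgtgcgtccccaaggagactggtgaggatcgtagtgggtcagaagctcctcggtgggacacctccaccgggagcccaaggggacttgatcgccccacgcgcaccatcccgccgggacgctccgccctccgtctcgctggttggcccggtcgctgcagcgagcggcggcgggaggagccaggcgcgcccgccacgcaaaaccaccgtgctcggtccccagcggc
The windows have little in common in composition, 45.6% GC for Slc3a1 and 70.4% for Slc1a1. TATAAA, the core of the TATA box, matched 3 times before Slc3a1, 2 of them overlapping on opposite strands, and not before Slc1a1, and 12.3% of 32536 mouse promoter windows of this length hold it. AGAACA, a half-site of the androgen and glucocorticoid receptors (16% of windows), TTCNNNGAA, a STAT site (7.04%), GTTAAT, a half-site of HNF1 (6.47%), and TGACCT, a half-site of several nuclear receptors (14% of windows), were in neither window. AGAACA was found before Slc6a19 and before neighbouring starts of Slc7a7 whose windows overlap, and TGACCT before Slc7a9 and another start of Slc7a7. The part of these matches in the sex differences was not tested.

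All 3 tested genes with an end within 250 kb of Slc3a1 were higher in control males, Prepl by 0.49, Lrpprc by 0.38 and Ppm1b by 0.36, next to 44.3% of all genes called higher. Near Slc3a2 9 of 25 were higher and 3 lower, and near Slc7a8 3 of 10 were higher. Prepl overlaps the end of Slc3a1 by 768 bases on the other strand, and Oxa1l overlaps Slc7a7 by 233 bases. Slc1a1 overlaps the pseudogene Gm5822, which averaged 2.42 TPM. Whether the authors' counting used strand is not given in the sources used here, so reads from the shared parts cannot be told apart. Wwp1, the tested neighbour of Slc7a13, was higher in control males by 0.85 (SE 0.10, limma adjusted p = 1.4e-05).

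A wider list of 35 amino acid transporters and their partners had 12 tested genes. In control males 8 of them were higher than in females and none was lower, with a median of 0.50, next to 44.3% and 8.3% of all genes. Among them was Slc38a10 (0.74), a putative amino acid transporter of the SNAT family. Another was Cltrn (0.62), the collectrin that Slc6a19 and Slc6a18 need to reach the brush border. Also higher were Slc36a1 (0.61), a proton-coupled carrier of small amino acids, Slc6a20b (0.55), of the Slc6 family, Slc43a2, Slc6a13 and Slc6a6. In KlKl 7 passed, without Cltrn (0.48, limma adjusted p = 0.093), and none was lower, next to 50.9% and 3.72% of all genes. KlKl against control gave no call in either sex. Under median-ratio scaling 5 were higher and 3 lower in control males, the lower ones being Slc15a2, Slc1a5 and Slc38a2, and in KlKl 3 were higher and 1, Slc38a2, was lower (-0.65, limma adjusted p = 0.012). Cltrn was at 37.8 to 45.0 TPM in male controls and 18 to 33.3 TPM in female controls, and its call there was lost under median-ratio scaling (0.31, limma adjusted p = 0.28).

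Of 20 genes that cells raise when amino acids are short, 11 were tested. In control males 5 were higher (Shmt2, Ddit4, Sesn2, Vldlr and Gpt2) and 1, Nupr1, was lower, next to 44.3% and 8.3% of all genes. Shmt2, which makes glycine in mitochondria, differed by 1.19 (SE 0.23, limma adjusted p = 0.00059), from 27.1 ± 6.07 TPM in males to 11.7 ± 3.80 TPM in females (SD, n = 4). In KlKl 6 were higher in males, with Cth added, and none was lower, next to 50.9% and 3.72% of all genes. Atf4, the factor that drives this response, did not pass between control males and females (0.09, limma adjusted p = 0.67), and none of the 11 was called for KlKl against control in either sex. Median-ratio scaling left 3 higher and 2 lower in controls, and 4 higher and 2 lower, Nupr1 and Atf4, in KlKl.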

How the data were processed

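Kidney polyadenylated RNA was sequenced for 16 mice, 1 library each, and the authors deposited 1 table of TPM with 30277 genes (a repeated Kl entry counted once) and 0 columns of other samples. Per the submitters' processing notes, Partek and build mm39 were used. The sources used here give no aligner, annotation release or counting rule. The deposited TPM sum to 309446 in every library. They behave as reads plus a small constant, divided by gene span with introns and scaled to that total, and reads were recovered on that inference, with 81% of values under 20 reads whole within 0.1 reads. The fixed total is why a change of scaling moves all genes.

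The 8059 genes that reached a TPM of 1 in 4 or more libraries were fitted as log2(TPM + 1) with limma 3.58.1 in R 4.3.3: a mean for each group, 12 residual degrees of freedom, mean-variance trend. P-values are limma's, by the Benjamini-Hochberg method over all genes tested in a contrast, with a threshold of 0.05. They measure the spread between animals. None is given for Slc7a12 between the sexes, although that test was planned. Recovered reads were used for depth, levels per exon length and ratios within a library, and in no test: since not nearly all low values were whole, they are not a count table. A planned limma voom fit on them was for that reason left out, after its results had been seen. Members and lists were chosen with earlier results of these data known. The text names all members, passing genes of the lists (at most 4 per direction by size, more where needed to state a count), tested neighbours within 250 kb, and the genes most and least correlated with Slc7a12 and Slc7a13. A gene of the wider transporter list is counted but not reported by name here. The fit was tested on simulated data. Alternatives covered filter, pseudocount, scaling, covariates, genotype of controls and left-out libraries. Chosen after seeing the data were median-ratio scaling with female control 3 and male KlKl 3 left out, the TATAAA and GTTAAT searches, and the shortening of the promoter windows to 250 bases.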

Additional observations from a re-analysis of the deposited data

Results flagged for a closer look

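In the 40 groups of 4 libraries formed by the 10 transporters and the 4 groups, 2 held a library far from the other 3, and chance flags about 5% of groups. Slc7a8 was at 2.34 TPM in male control 4 and at 1.48 to 1.51 TPM in the other male controls, a gap of 0.967 of the whole range. Slc1a1 was at 3.43 TPM in male KlKl 1 and at 2.28 to 2.44 TPM in the other KlKl males, a gap of 0.864 of the range.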

How the results depend on the processing

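Between the sexes Slc7a13, Slc3a1 and Slc1a1 kept their direction and their call in controls and in KlKl, and Slc7a12, described without a test, its direction in controls, under all alternatives that tested them, leaving out any 1 library included. The number of members under the threshold in controls, Slc7a12 not counted, was 3. It was 2 with a TPM minimum of 5, which leaves fewer members tested, and 5 (3 higher, 2 lower in males) under median-ratio scaling without female control 3 and male KlKl 3. In KlKl it was 6, then 3 under median-ratio scaling, 4 without these 2 libraries, and 5 (3 higher, 2 lower) with both changes, and the cause was not tested. Without any 1 library it was 4 to 6 in KlKl, 3 in controls and 0 for KlKl against control in females. The replicate numbers did not pair the samples (correlations of same-numbered libraries from -0.222 to 0.219). A replicate block gave 3 members passing in controls, 5 in KlKl and 0 for KlKl against control in females, Slc7a9 in KlKl losing its call (limma adjusted p = 0.059). Differences that changed sign were those of members not called, or of Slc7a7 and Slc7a9 in KlKl, and the cause was not tested. Among control mice, males against females, the sign turned under median-ratio scaling for Slc7a9 (-0.14), Slc3a2 (-0.10), Slc7a7 (-0.081), Slc7a8 (-0.20) and Slc6a18 (-0.071), with age as a covariate for Slc7a8 (-0.10), with heterozygous controls alone for Slc7a9 (-0.011), Slc7a8 (-0.10) and Slc6a19 (-0.26). It also turned without female control 3 and male KlKl 3 for Slc3a2 (-0.10) and Slc7a8 (-0.18), under median-ratio scaling and without these 2 libraries for Slc7a9 (-0.13), Slc3a2 (-0.35), Slc7a7 (-0.039), Slc7a8 (-0.37), Slc6a19 (-0.17) and Slc6a18 (-0.065). Among KlKl mice, males against females, it turned under median-ratio scaling for Slc7a9 (-0.031), Slc3a2 (-0.29) and Slc6a19 (-0.19), with age as a covariate for Slc7a8 (0.015). It also turned without female control 3 and male KlKl 3 for Slc6a19 (-0.10), under median-ratio scaling and without these 2 libraries for Slc7a9 (-0.085), Slc3a2 (-0.23), Slc7a7 (-0.025) and Slc6a19 (-0.44). For KlKl against control in females it turned under median-ratio scaling for Slc7a9 (-0.10) and Slc6a19 (-0.0104), with age as a covariate for Slc7a13 (0.046). It also turned without female control 3 and male KlKl 3 for Slc6a19 (-0.064), under median-ratio scaling and without these 2 libraries for Slc7a9 (-0.083), Slc3a2 (-0.093), Slc7a8 (-0.076), Slc6a19 (-0.19) and Slc1a1 (-0.0098). Leaving out each library in turn, differences that changed sign ran from -0.0023 to 0.088 for Slc7a9 (females), -0.10 to 0.053 for Slc7a13 (females), -0.10 to 0.29 for Slc3a2 (controls), -0.175 to 0.103 for Slc7a8 (controls), -0.13 to 0.032 for Slc7a8 (KlKl), -0.064 to 0.31 for Slc6a19 (females), -0.10 to 0.41 for Slc6a19 (KlKl). The planned limma voom fit on recovered reads is not among these alternatives. Depth limits Slc7a13 in females and Slc7a12 in male controls, which rest on 23 to 222 and 67 to 207 reads.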
